A study of Mus musculus with 8 samples.

Results

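The genes described here are 35 mouse genes by which an activated T cell takes up and burns nutrients: glucose transporters, the enzymes of glycolysis, lactate transporters, the regulators Hif1a, Mtor and Rptor, and transporters and enzymes of amino acid and polyamine metabolism. Open chromatin around them was read from ATAC-seq, in which a transposase cuts accessible DNA. Deposited peaks of 8 libraries were merged where they overlapped into 175276 regions, and the 386 regions that overlap a member's gene body or the 10 kb on either side are the ones described. All 35 genes had regions, with a median of 8 each, and no region belonged to more than 1 member.

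The cells were CD4 T cells sorted as naive from mouse spleen, stimulated for 48 h with antibodies to CD3 (0.25 µg/mL) and CD28 (1 µg/mL), which stand in for antigen. Every culture also received 20 ng/mL TGF-β, the cytokine that drives such cells toward regulatory T cells. The 4 groups were control (WT in the labels) without IL-2, Tet1/3 cDKO without IL-2, control with 100 U of IL-2, and Tet1/3 cDKO with 100 U of IL-2. Each group had 2 libraries of 90000 cells. The cDKO cells lack Tet1 and Tet3, whose products oxidise 5-methylcytosine in DNA. The Cre driver, the deleted exons, other sequences the alleles may carry, and the age, sex and strain of the mice are not stated in these sources. The replicates are stated to be biological. Whether each came from a separate animal is not given.

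Resting T cells burn little glucose, and stimulation through CD3 and CD28 switches them to aerobic glycolysis, in which glucose is split to pyruvate and much of it leaves as lactate. Signals from CD28 and IL-2 reach mTORC1, the kinase complex of Mtor and Raptor (the product of Rptor), which raises Hif1a and Myc activity and with them glucose and amino acid transport. Regulatory T cells are known to depend less on glycolysis than effector T cells, and mTORC1 activity is known to restrain their induction by TGF-β.

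The deposited lists held 65811 to 145979 peaks per library. A longer list names weaker peaks, so each list was cut to its 65811 strongest peaks by −log10 p-value, the length of the shortest list, and a library "lists" a region when 1 of these peaks lies in it. The peak at that limit had a −log10 p of 3.248 to 13.49. Rank 1 is the strongest peak of a library. The labelled cell type was checked at gene starts. Of 7 CD4 T cell markers 5 to 6 had a listed start in each library, with Zbtb7b at 0 in every library. Of 3 regulatory T cell markers 2 to 3 did, against 0 of 3 for B cells and 0 of 4 for erythroid cells. Of 6 CD8 T and NK cell markers 1 to 3 were listed, with Eomes, Klrb1c and Ncr1 at 0 in every library, and of 4 myeloid markers 1 to 2 were, with Lyz2 and Siglech at 0. Their part in the results was not tested. In bulk lists, a peak present in fewer cells and a less open peak in the same cells cannot be told apart. A rank is also relative, since it moves when other peaks of the library move.

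Promoter sequence is shown first for 4 of the 5 members whose start region differed in rank between genotypes or IL-2 arms in all libraries. The other, Pgam1, differed by 1.11 times. Each run is a RefSeq window of GRCm38.p6 from 250 bases before the start to 50 bases after it, written 5′ to 3′ on the gene's strand. Capitals mark matches to 6 motifs, searched on both strands. The E-box that Myc binds is spelled CACGTG. Contained in it is the core of the element that HIF proteins bind, ACGTG, which was searched on its own. Members of the AP-1 family, induced by T cell stimulation, bind letters of the form TGANTCA in many promoters and enhancers. The GC box of Sp-family factors, common in promoters of broadly active genes, is GGGCGG here. The STAT palindrome, bound by STAT5 after IL-2 signalling, is TTCNNNGAA, and the joint element of CHOP and ATF4, used in amino acid shortage, is TGATGNAAT. Positions give the first base of a match relative to the start. The windows are Pgk1 at chrX:106186850-106187149 on the plus strand, Shmt2 at chr10:127522395-127522694 on the minus strand, Bcat1 (its upstream start) at chr6:145076108-145076407 on the minus strand and Ldhb at chr6:142507908-142508207 on the minus strand.
Pgk1: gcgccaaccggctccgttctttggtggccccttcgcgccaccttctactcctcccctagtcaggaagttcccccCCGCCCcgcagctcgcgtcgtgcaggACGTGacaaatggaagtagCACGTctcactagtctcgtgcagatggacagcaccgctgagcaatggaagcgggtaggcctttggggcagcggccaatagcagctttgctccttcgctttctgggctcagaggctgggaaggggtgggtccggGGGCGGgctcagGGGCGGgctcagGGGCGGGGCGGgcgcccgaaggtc
Shmt2: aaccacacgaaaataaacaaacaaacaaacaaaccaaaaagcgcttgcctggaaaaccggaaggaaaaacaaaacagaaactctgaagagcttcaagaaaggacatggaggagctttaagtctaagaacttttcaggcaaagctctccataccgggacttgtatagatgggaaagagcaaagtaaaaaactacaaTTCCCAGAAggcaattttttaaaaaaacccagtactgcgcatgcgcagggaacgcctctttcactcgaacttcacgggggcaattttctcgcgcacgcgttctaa
Bcat1: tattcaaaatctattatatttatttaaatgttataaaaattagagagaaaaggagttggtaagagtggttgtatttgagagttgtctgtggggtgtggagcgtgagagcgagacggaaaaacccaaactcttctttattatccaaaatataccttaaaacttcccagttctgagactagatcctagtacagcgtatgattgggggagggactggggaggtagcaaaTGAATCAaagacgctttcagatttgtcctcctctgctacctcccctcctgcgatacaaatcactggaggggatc
Ldhb: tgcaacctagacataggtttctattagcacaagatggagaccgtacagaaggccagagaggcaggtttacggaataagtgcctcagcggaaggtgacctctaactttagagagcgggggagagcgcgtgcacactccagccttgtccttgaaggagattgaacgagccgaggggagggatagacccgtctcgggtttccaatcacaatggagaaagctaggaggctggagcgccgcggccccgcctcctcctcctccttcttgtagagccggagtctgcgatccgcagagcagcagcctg
The Pgk1 window held 5 GC boxes and ACGTG at -150 and -131, and 24 CG dinucleotides. Shmt2 held a STAT palindrome at -55 and 13 CG dinucleotides. Bcat1 held an AP-1 match at -24 and 6 CG dinucleotides. The Ldhb window held none of the 6 motifs and 17 CG dinucleotides.

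Across all windows of members, the HIF core differed most from its share elsewhere. It lay in 23 of 48 member windows (47.9%) from 19 members, against 20.9% of 21263 windows of protein-coding genes. The E-box was in 10.4% against 7.84%, and those 5 windows were of Pfkm, Pfkfb3, Ldha, Slc16a1 and Hif1a. The STAT palindrome was in 10.4% against 7.69%, in Pfkm, Aldoc, Mtor, Slc7a1 and Shmt2. GC boxes were in 52.1% against 46.2%, AP-1 in 6.25% against 6.99%, and the CHOP and ATF4 motif in 0 windows against 0.8%. Member windows held a median of 19 CG dinucleotides against 13. The letters of the HIF core, E-box and GC box each hold a CG, and the shares were not matched for CG count. Every window with an E-box also counts under the HIF core. Windows of 1 gene can overlap, and a match shows letters, not binding.

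The gene starts were open in nearly every member and every library. Of the 32 members with a start in the promoter table, 31 (96.9%) had a start inside a region listed by all 8 libraries, against 52.4% of 17492 protein-coding genes. The exception was Bcat2, the mitochondrial branched-chain aminotransferase, whose strongest region (chr7:45567861-45568730) ended 0.237 kb upstream of its gene body and ranked 5233 to 9194. The tabled starts of Bcat2 lie at 45570153 and 45571279, inside the gene body, which begins at 45568967. That upstream end of the body was not scored as a start. By median rank the strongest starts were those of Pgk1 and Hk1, a hexokinase that traps glucose as its phosphate (835 to 1943). Next came Odc1 (554 to 3497), Pfkl, the liver-type phosphofructokinase (1551 to 3338), and Mtor (1051 to 3311). Weakest were those of Phgdh, which opens serine synthesis (24440 to 52730), Shmt2, the mitochondrial serine hydroxymethyltransferase (13187 to 50020), and the lactate exporter Slc16a3 (20110 to 52699). Gapdh, often taken as a constant gene, ranked 3800 to 7021, and the 4 control libraries overlapped the 4 cDKO libraries. For the 3 members without a tabled start, the strongest regions were chr6:122810174-122812011, 7.811 kb outside Slc2a3 (1873 to 6137), chr8:121907073-121908251 at an end of Slc7a5 that also holds the start of BC048644 (3959 to 12150) and chr7:16780966-16782591 over an end of Slc1a5 (5125 to 17893).

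Of the 386 regions, 125 were listed by all 8 libraries, 118 by 1 to 7 and 143 by none. The share listed by all 8 was 32.4%, against 23.2% of all regions and 25.3% of regions within 10 kb of protein-coding genes. By library the share of member regions listed was 45.6% and 46.89% in control and 44.56% and 43.52% in cDKO cells without IL-2, and 44.56% and 47.93% in control and 44.82% and 46.11% in cDKO cells with IL-2. These values overlapped between genotypes and between IL-2 arms over all 8 libraries, while without IL-2 both control libraries lay above both cDKO libraries. The mean was 46.2% ± 1.47 (SD, n = 4) in control and 44.8% ± 1.07 in cDKO, a difference of -1.49 percentage points, beside a pooled SD between replicates of 1.4 points. Over all regions the difference was -0.123 points. With IL-2 the share differed by 0.712 points from that without it, within the same spread.

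**Figure D1:**
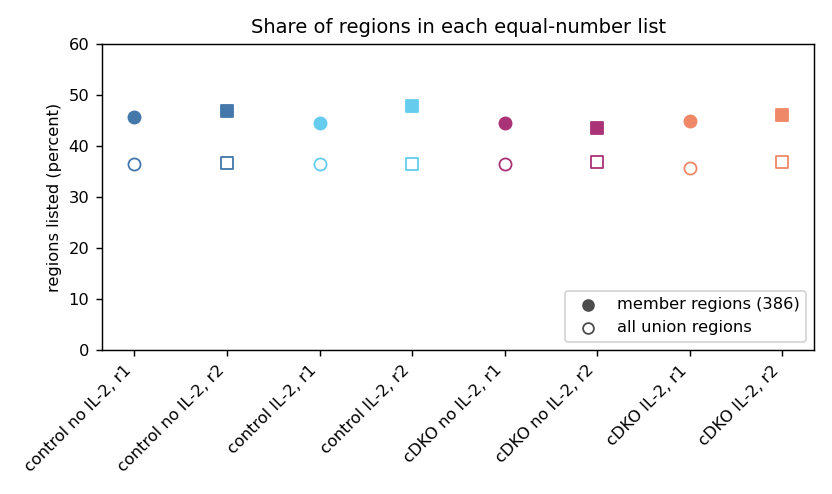
Share of the 386 member regions (filled) and of all union regions (open) listed in each of the 8 equal-number lists, in percent on the vertical axis, circles for replicate 1 and squares for replicate 2. Member regions sat between 43.52% and 47.93%, all above the 35.6% to 36.88% of all regions, and the 4 control libraries overlapped the 4 cDKO libraries. Without IL-2 both control libraries lay above both cDKO libraries.

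Counting listed regions per gene gave no member whose 4 cDKO libraries all lay above or all below the 4 control libraries. Among 17551 protein-coding genes this happened in 1.54% upward and 1.64% downward. For IL-2 the count was also 0 members in each direction, beside 0.558% and 0.541%. Pfkl, Pfkm (muscle phosphofructokinase), Aldoa and Aldoc (aldolases) had the same number in all 8 libraries. In several members the groups met at a single value, among them Rptor, with 55 regions, Mtor, Eno1, Bcat2 and Slc16a1. The 4 control libraries of Rptor listed 21, 22, 18 and 17 regions. Its 4 cDKO libraries listed 16, 15, 16 and 17, so that the groups touched at 17.

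**Figure D2:**
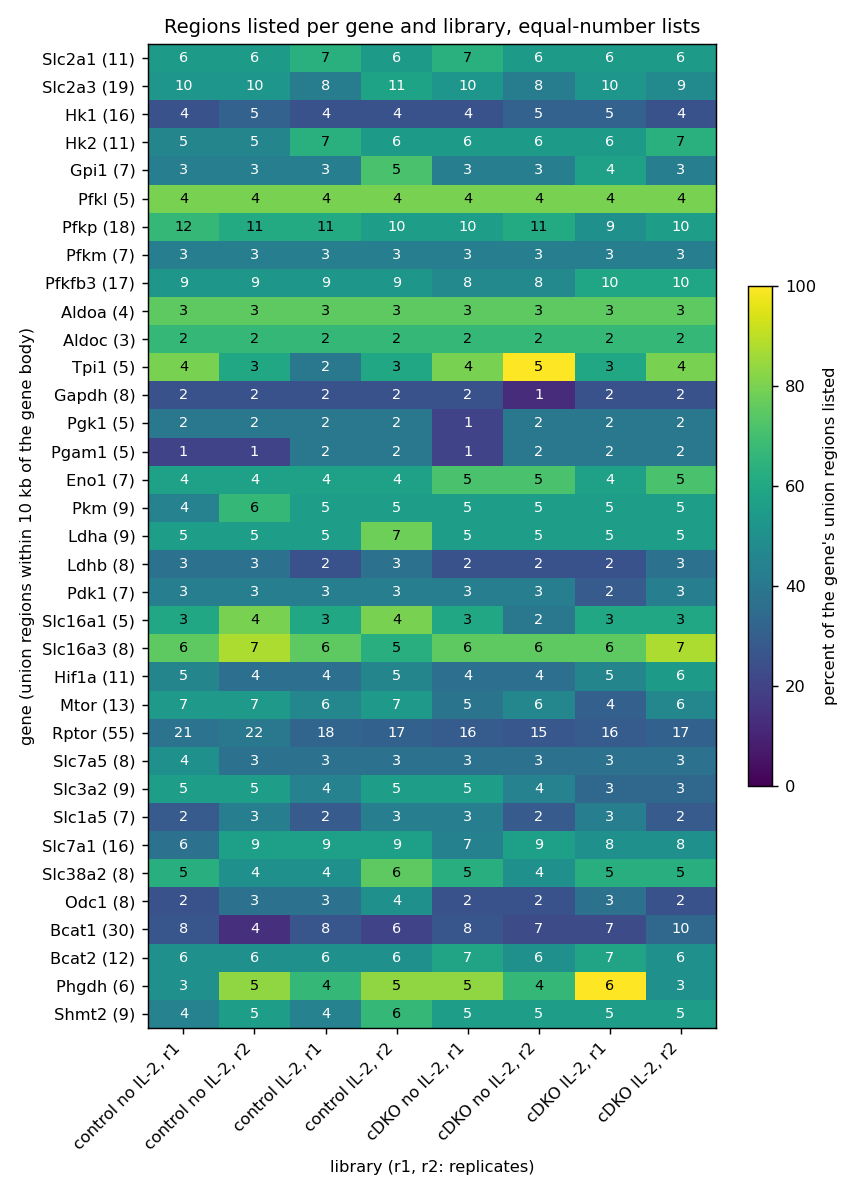
Number of regions listed for each of the 35 genes (rows, with the gene's union regions in brackets) in each of the 8 libraries (columns); colour is the percent of the gene's regions listed. Pfkl, Pfkm, Aldoa and Aldoc are constant, and Rptor runs from 15 to 22.

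A region is called higher in cDKO when all 4 cDKO libraries list it and no control library does, and lower in the reverse case. Among the 179 member regions listed by at least 4 libraries, 4 (2.23%) were higher and 4 (2.23%) lower. Over all 64597 such regions 1.05% were higher and 1.66% lower, and over those near protein-coding genes 0.997% and 1.49%. The 8 regions lay at 4 genes, with 4 of them in Rptor, 2 in Bcat1, 1 in Slc16a1 and 1 beside Slc2a3. None lay over a start, and none of the 8 was called when the deposited lists were used at full length. For a single region the smallest p that an exact permutation test can give with 4 libraries against 4 is 0.0286 (2-sided), so the calls are given without p-values and are read against these shares.

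For regions that all 8 libraries list, ranks were compared instead: a region separates when every cDKO library ranks it better, or every one worse, than every control library. Of the 125 member regions, 4 (3.2%) ranked better in cDKO, beside 6.15% of all 40694 such regions, and 6 (4.8%) worse, beside 5.72%. The median log2 ratio of control to cDKO rank was 0.0485 over the 125 and 0.0499 over all. Both shares of separated ranks lay below the background, and the shares of higher and of lower calls lay above theirs. With peaks ordered by fold, the upstream region of Slc16a3 and the region of Pfkfb3 still separated by genotype, of 9 that could be compared, and those of Hk2, Shmt2, Ldhb, Pfkp and Tpi1 by IL-2, of 8.

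The glucose transporters were open in all groups. Slc2a1, the main glucose transporter of activated T cells, listed 6 or 7 of its 11 regions in every library, and its start (chr4:119108410-119109493) ranked 6178 to 18319. Slc2a3, a high-affinity transporter, listed 8 to 11 of 19. A region 1.308 kb outside its gene body (chr6:122725984-122726501) ranked 55545 and 43338 without IL-2 and 41423 and 59162 with IL-2 in control cells, and no cDKO library listed it. It was called lower, but 3 of the 4 cDKO libraries held a weaker peak there beyond the equal-number limit. Slc2a3 lies on chromosome 6, where 2.43% of 3493 regions were higher and 2.03% lower, beside 1.05% and 1.66% of all regions.

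Among the first enzymes, added IL-2 went with a stronger region inside Hk2, the inducible hexokinase. The region lies 20.9 kb into the gene (chr6:82753044-82753977). Without IL-2 it ranked 12180 and 20807 in control and 32080 and 35390 in cDKO libraries, and with IL-2 it ranked 4906 and 5880 in control and 11436 and 7905 in cDKO. All 4 libraries with IL-2 were better than all 4 without, by a ratio of median ranks of 3.84, and only 21 of the 1127 regions that separated this way had a ratio as large. Within each IL-2 arm both control libraries also ranked it better than both cDKO libraries. The start of Hk2 ranked 3006 to 8002. It had no such separation. Hk2 lies on chromosome 6. There 7.47% of 2087 regions listed by all 8 libraries ranked better in cDKO and 5.7% worse. Over all such regions it was 6.15% and 5.72%. The part of the chromosome in the genotype difference at Hk2 was not tested. Gpi1, which interconverts glucose and fructose phosphates, had 1 region worse in cDKO by 1.73 times, at chr7:34195735-34196935, which covers the start of the neighbouring gene Pdcd2l.

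Among phosphofructokinases, the step that commits sugar to glycolysis, Pfkl and Pfkm kept the same listed regions in number. Pfkfb3, which makes the activator of phosphofructokinase, had a region 23.4 kb inside the gene (chr2:11530167-11530793) that was weaker in cDKO. The ranks were 12994 and 14961 in control and 28097 and 25933 in cDKO libraries without IL-2, and 7004 and 15056 in control and 28185 and 31241 in cDKO libraries with IL-2. The groups did not overlap, the ratio of medians was 2.01, and 760 of 2327 regions worse in cDKO had a ratio as large. The Pfkfb3 start ranked 7495 to 13665 in control and 5738 to 8662 in cDKO libraries, which overlap. Pfkp, the platelet-type enzyme, had a region 15 kb inside (chr13:6633434-6634156) that ranked better with IL-2 in all libraries by 1.54 times.

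Pgk1, the X-linked phosphoglycerate kinase that makes ATP in lower glycolysis, had the largest ratio of ranks among the member regions that separated by genotype. Its start region (chrX:106186581-106187365, the region that holds the sequence above) ranked 2294 and 3856 in control and 83 and 91 in cDKO libraries without IL-2. With IL-2 it ranked 1791 and 1981 in control and 339 and 161 in cDKO. Every cDKO library was well ahead of every control library, by a ratio of medians of 17. Among the 2504 regions that ranked better in cDKO, 2 had a ratio as large, Pgk1 included. The authors' fold over background there was 13.1 to 14.8 in control and 15.1 to 18.1 in cDKO, and their −log10 p was 62.2 to 70.8 and 86.3 to 105. Ordered by fold in place of −log10 p, the region no longer separated, with a log2 ratio of 1.1 in place of 4.08.

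The outline of the Pgk1 peak differed too. Its upstream edge lay between -394 and -385 bases from the start in the 4 cDKO libraries, a spread of 9 bases, and between -519 and -414 in the 4 controls, a spread of 105. Downstream edges overlapped, at 158 to 259 and 134 to 265. The upstream edge also spread less in cDKO at the starts of Pgam1 (23 against 215 bases) and Ldhb (26 against 95), and more at those of Shmt2 (59 against 42) and Bcat1 (44 against 12). Pgk1 promoter sequence is commonly built into the selection cassettes of targeted alleles. Whether the alleles here carry one is not given, so reads from such a cassette and from the Pgk1 start cannot be told apart. Over chromosome X as a whole, 4.96% of 847 regions ranked better in cDKO and 4.25% worse. The equal-number lists held 1388 to 1486 peaks on X in control and 1366 to 1456 in cDKO libraries. On Y they held 22 to 24 in control and 25 to 31 in cDKO, without overlap. Their part in the Pgk1 result was not tested.

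The other genes of lower glycolysis showed smaller shifts. Pgam1, phosphoglycerate mutase, separated at its start (chr19:41911370-41912711), but by 1.11 times: the controls ranked 8390, 9043, 9215 and 7409 and the cDKO libraries 9232, 9372, 9914 and 11233. Of 2327 regions worse in cDKO, 2321 had a ratio as large. Eno1 (enolase) listed 4 regions in each control library and 4 or 5 in cDKO, and its start ranked 4462 to 9058 with overlap. Tpi1, triose phosphate isomerase, had a downstream region (chr6:124805578-124805910) ranked worse with IL-2 by 1.29 times. Pkm, pyruvate kinase, had a downstream region ranked better with IL-2 by 1.35 times (chr9:59679629-59680511), and that region covers the start of Gramd2.

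For the fate of pyruvate and lactate, regions of Slc16a3, Slc16a1, Ldhb and Pdk1 differed by genotype or IL-2, and Ldha had none that did over all 8 libraries. Slc16a3, the exporter typical of glycolytic cells, had a region 7.9 kb upstream (chr11:120940954-120941445) ranked 3817 and 8094 in control and 3304 and 1964 in cDKO libraries without IL-2, and 6067 and 9720 in control and 3647 and 2586 in cDKO with IL-2. It was better in all cDKO libraries, by 2.4 times, as large as in 247 of 2504 such regions, and the call held when peaks were ordered by fold. A second Slc16a3 region near the end of the gene (chr11:120958632-120959076) was also better in cDKO, by 1.9 times, at 23956 to 26546 against 30183 to 62674 in controls. It lies in the body of Csnk1d as well. Slc16a1, a lactate transporter of higher affinity, had a region 18.9 kb inside (chr3:104657459-104657723) called lower: controls ranked 56630, 42151, 62111 and 31136, and 3 cDKO libraries held a weaker peak.

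Ldhb, the lactate dehydrogenase form that favours pyruvate, had a start region stronger with IL-2 (chr6:142507310-142508323). Without IL-2 it ranked 3542 and 4478 in control and 3274 and 4772 in cDKO libraries, and with IL-2 558 and 2956 in control and 2006 and 2047 in cDKO. The ratio of medians was 1.98. Ldha, the form that favours lactate, ranked 7879 to 14028 at its start, and libraries with IL-2 overlapped those without. Pdk1, which keeps pyruvate out of mitochondria, had an upstream region (chr2:71865959-71867016, 6.7 kb before the start) that ranked worse with IL-2. The ranks were 14226 and 11748 in control and 4305 and 3542 in cDKO libraries without IL-2, and 20587 and 19343 in control and 16080 and 15278 in cDKO with IL-2. In both arms the cDKO libraries were ahead of the controls, and the drop with IL-2 was 2.21 times between medians, a log2 ratio of -1.14. That ratio was -2.04 without either replicate of control without IL-2, and -0.592 without either replicate of cDKO without IL-2.

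**Figure D3:**
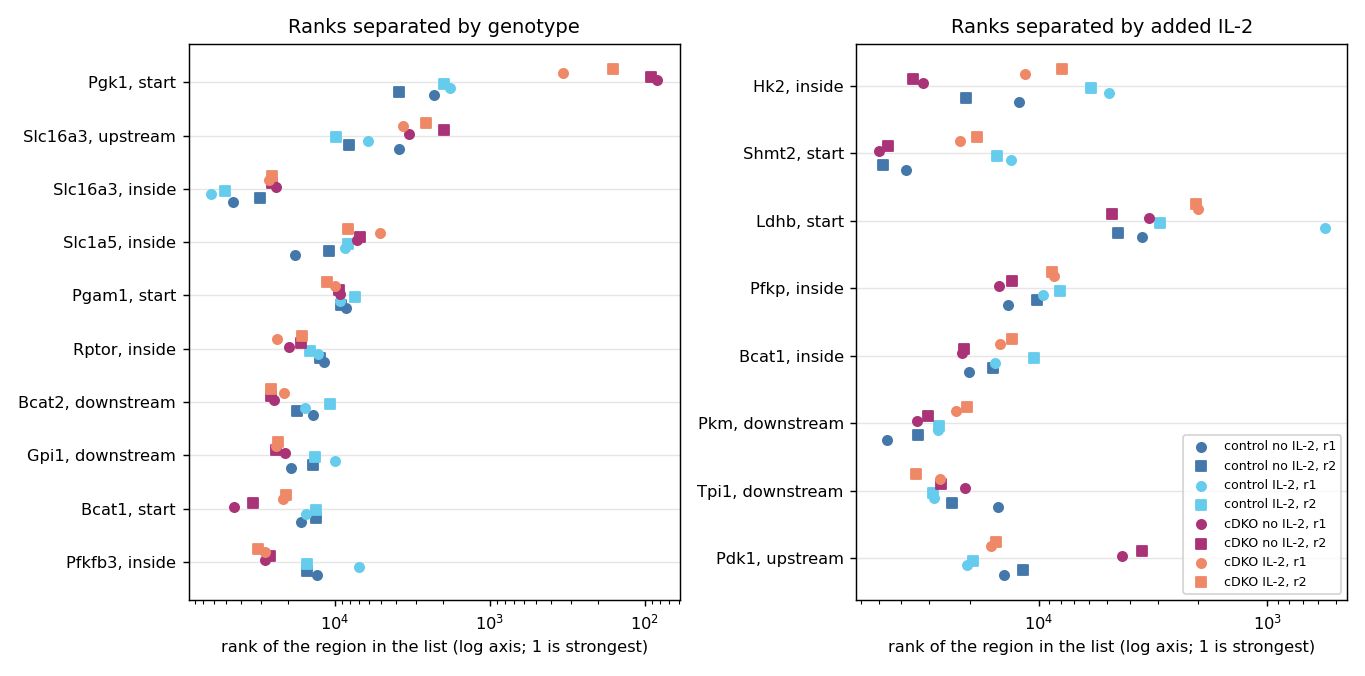
Rank of each member region that separated by genotype (left) or by added IL-2 (right), 1 point per library on a log axis with rank 1 to the right; colour is the group and shape the replicate. Pgk1 stands farthest apart on the left, from 83 to 339 in cDKO against 1791 to 3856 in control, and Hk2 has the largest ratio on the right, 3.84.

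For IL-2 over both genotypes, 0 member regions were called higher and 0 lower of 179, beside 0.517% and 0.341% of all regions. Of the 125 regions listed by all libraries, 6 (4.8%) ranked better with IL-2, beside 2.77%, and 2 (1.6%) worse, beside 3.01%. Over all 32 start regions of members, 21 (65.6%) had a better median rank with IL-2, with a median log2 ratio of 0.182. Start regions of all protein-coding genes leaned the same way, 60.2% of 8619 with a median of 0.0865. The median was 0.0082 over the other 93 member regions and -0.00948 over all 40694 regions. By genotype, 19 of the 32 (59.4%) ranked better in cDKO, with a median of 0.131, beside 57.8% and 0.0852 for all start regions.

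Among the regulators, Rptor held the most calls. Its gene body spans 297 kb, and 2 regions were higher and 2 lower in cDKO, all inside the gene. The region 21.9 kb from the start (chr11:119624458-119625210) ranked 22591, 30038, 34846 and 38074 in the cDKO libraries. It was not listed in control, where 2 libraries held a weaker peak. At 110.6 kb (chr11:119713221-119713853) the cDKO ranks were 57019, 53588, 37904 and 59091, near the limit of the list, and 3 control libraries held a weaker peak. Lower in cDKO were the region at 41.5 kb (chr11:119644241-119644498), with control ranks of 21956, 24305, 42927 and 47313, and that at 193.8 kb (chr11:119796449-119796879), with 58163, 54028, 46683 and 50200. Each of these 2 still had a weaker peak in 3 cDKO libraries beyond the limit of the list. Without Rptor, the counts over the other members were 2 higher and 2 lower.

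**Figure D4:**
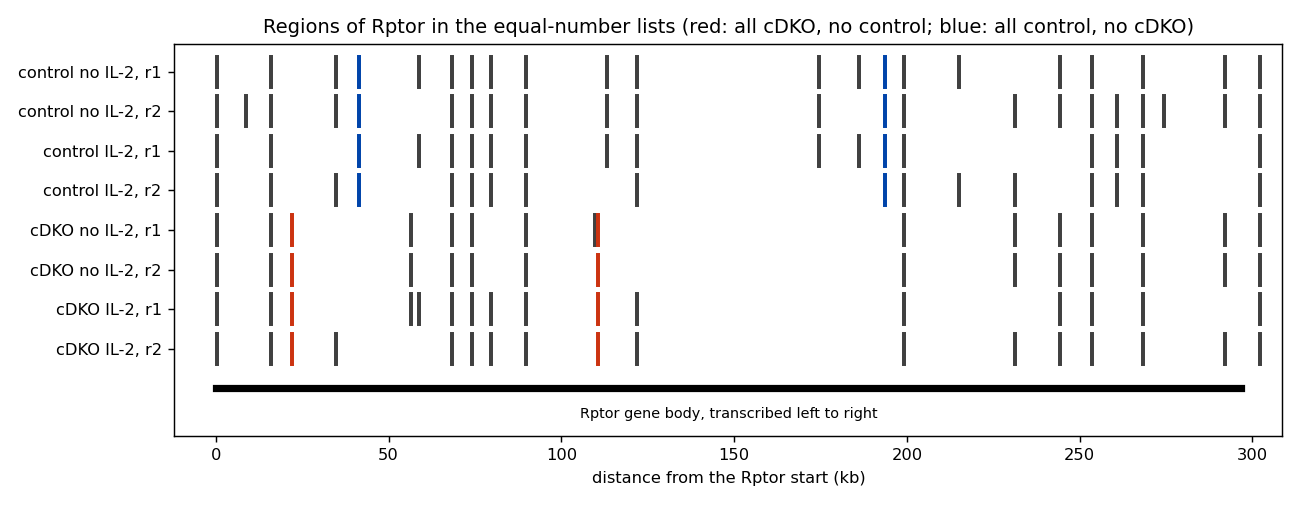
Regions listed along Rptor in each library, by distance in kb from its start, 1 row per library; red marks regions listed in all 4 cDKO and no control libraries, blue the reverse, and the bar is the gene body. The 2 red regions lie at 21.9 and 110.6 kb and the 2 blue ones at 41.5 and 193.8 kb.

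The Rptor start (chr11:119602794-119603773) ranked 2152 to 7624 with overlap, and the region 253.6 kb in (chr11:119856070-119857014) ranked worse in cDKO by 1.43 times, at 16148 to 23338 against 11786 to 14332. Mtor listed 7, 7, 6 and 7 regions in controls and 5, 6, 4 and 6 in cDKO, with overlap at 6. Hif1a, the oxygen-sensitive activator of glycolytic genes, ranked 1369 to 4804 at its start with overlap. Across the 3 regulators 38.9% ± 3.33 (SD, n = 4) of 79 regions were listed in control and 32.9% ± 2.53 in cDKO. The difference was -6.01 points, and 55 of the 79 regions are those of Rptor. It was the widest among the members grouped by role. Lower glycolysis differed by 3.26 points, amino acid and polyamine enzymes by 2.69, and the hexokinases with Gpi1 by 1.47, and the rest were negative. Regions of CD8 T and NK cell markers differed by 5.11 points, those of CD4 T cell markers by -4.17 and all regions by -0.123.

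Of the amino acid transporters, Slc1a5, which brings in glutamine, had 1 region better in cDKO. It covers an end of the gene body (chr7:16780966-16782591) and ranked 17893 and 10938 in control and 7165 and 6880 in cDKO libraries without IL-2, and 8529 and 8247 in control and 5125 and 8179 in cDKO with IL-2. The margin was narrow, since the weakest cDKO library was at 8179 and the best control at 8247. Slc7a5 and Slc3a2, which form the large neutral amino acid transporter, had no region called or separated over all 8 libraries. A region inside Slc7a5 (chr8:121898159-121899023) was read after its values were seen: without IL-2 it ranked 5902 and 5982 in control against 15016 and 18811 in cDKO libraries, and with IL-2 5771 and 3680 against 5332 and 12708, which overlap. Slc7a1 (arginine and lysine) and Slc38a2 (small neutral amino acids) had no region called over all 8 libraries.

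Bcat1, the cytosolic branched-chain aminotransferase, held the most calls among the amino acid enzymes, in opposite directions at its start and inside the gene. The start region (chr6:145075004-145076243) ranked 16503 and 13175 in control and 44767 and 33636 in cDKO libraries without IL-2, and 15372 and 13204 in control and 21619 and 20466 in cDKO with IL-2. All cDKO libraries were worse, by 1.93 times. Their peaks had folds of 6.11 to 9.3 and widths of 308 to 772 bases, against 8.43 to 9.83 and 682 to 1240 in control. Farther in, 2 regions were called higher in cDKO, as 2.43% of 3493 regions on chromosome 6 were, beside 1.05% over all regions. The one at 66 kb (chr6:145009894-145010389) ranked 39386, 39705, 42865 and 41003 in cDKO, with a weaker peak in 2 control libraries, and the one at 78.7 kb (chr6:144997303-144997512) ranked 41176, 34112, 42609 and 36643, with a weaker peak in 1 control library. Between them and the start, a region at 53 kb (chr6:145022993-145023301), picked out after its values were seen, ranked 20421, 28996, 32337 and 24156 in cDKO against 57278, 58833 and 63365 in 3 controls, and the other control did not list it.

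**Figure D5:**
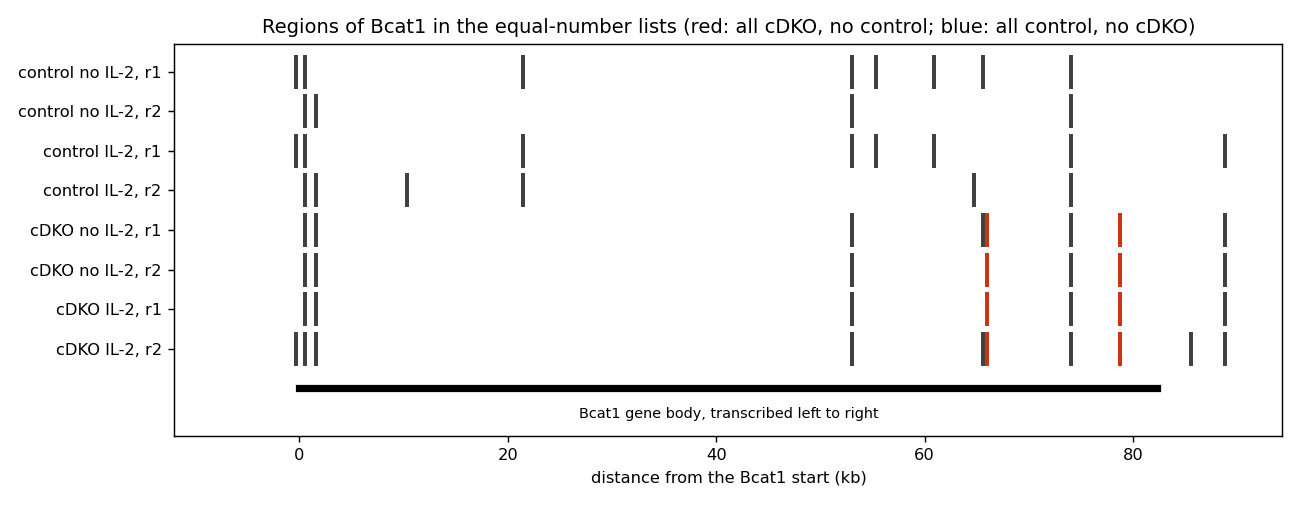
Regions listed along Bcat1 in each library, by distance in kb from its upstream start, drawn as in the plot of Rptor. The 2 red regions at 66 and 78.7 kb appear in the 4 cDKO libraries and in no control.

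Shmt2, which passes a carbon from serine to folate in mitochondria, had a start that was stronger with IL-2 in both genotypes. The region (chr10:127521527-127522529, over the sequence above) ranked 37988 and 48138 in control and 50020 and 45693 in cDKO libraries without IL-2, and 13187 and 15172 in control and 22110 and 18607 in cDKO with IL-2. No library with IL-2 overlapped one without. The ratio of medians was 2.78, as large in 79 of 1127 regions better with IL-2, and the call held when peaks were ordered by fold. The peaks ran from 85 to 26 bases before the start to 754 to 917 bases after it. The STAT palindrome at -55 lay near that upstream edge and far from the summits. With IL-2 the upstream edges were at -27 and -54 in control and -26 and -85 in cDKO libraries. The summits lay 533 to 614 bases after the start with IL-2 and 222 to 630 without it. Binding of STAT5 was not tested. Phgdh had no call. Odc1, which opens polyamine synthesis, ranked 554 and 650 at its start (chr12:17544224-17545585) in cDKO libraries without IL-2, ahead of 3497 and 2292 in control, and with IL-2 2172 and 1827 against 3402 and 1172, which overlap. A Bcat1 region 74 kb in (chr6:145001419-145002887) ranked better with IL-2 by 1.48 times. Bcat2 had a downstream region (chr7:45591817-45592405) worse in cDKO by 1.71 times.

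Within a single IL-2 arm, with 2 libraries against 2, the member counts lay near or below the background. Without IL-2, 9 member regions of 186 were higher in cDKO and 13 lower (4.84% and 6.99%), beside 5.4% and 5.86% of all regions. With IL-2, 6 of 188 were higher and 11 lower (3.19% and 5.85%), beside 5.1% and 5.62%. IL-2 gave 3 higher and 2 lower of 185 in control (1.62% and 1.08%, beside 3.38% and 3.55%) and 6 higher and 5 lower of 180 in cDKO (3.33% and 2.78%, beside 3.97% and 4.19%). A p under 0.333 cannot be reached with 2 against 2, so these are counts only. A region 1.248 kb downstream of Pdk1 (chr2:71905106-71905576) was lower in cDKO with IL-2: the controls ranked 27956 and 24407, and both cDKO libraries held a weaker peak. Without IL-2 it ranked 27135 and 28659 in control and 59580 and 54065 in cDKO libraries. No member region was called in opposite directions in the arms of either comparison. Over all 175276 regions 40 were in each, too few for the 0 among 386 to tell anything. Differences between the arms were not tested.

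Other genes of the same pathways, 100 in 6 lists, were read the same way. Of 335 regions tested, summed over the lists, 3 (0.896%) were higher and 2 (0.597%) lower in cDKO, beside 1.05% and 1.66% of all regions. With IL-2, 2 (0.597%) were higher and 1 (0.299%) lower, beside 0.517% and 0.341%. The genotype calls lay at Taldo1, Mthfd1l and Rragc (higher) and at Rps6kb1 and Irf4 (lower). Those for IL-2 lay at Pfkfb2 and Castor1 (higher) and at Slc43a1 (lower). Only part of the separated ranks is named here. By genotype, 2 of 18 pentose phosphate regions listed by all 8 libraries ranked better and 0 worse. In the list of serine, one-carbon and polyamine genes it was 1 and 1 of 38. In the mTORC1 list it was 0 and 1 of 47, and in the HIF and Myc list 0 and 1 of 54. With IL-2, the mTORC1 list had 1 better and 1 worse. Of 28 further glycolysis genes, none had a region called by genotype. Of their 57 regions listed by all 8 libraries, 3 ranked better in cDKO (Slc2a4, Adpgk, Eno3) and 2 worse (Slc2a8, Pdk2), beside the 6.15% and 5.72% of all regions. With IL-2, a region of Pfkfb2 was called higher, 1 of the 57 ranked better (Adpgk) and 2 worse (Pfkfb4, Slc16a7), beside 2.77% and 3.01%. Pgd, an enzyme of the pentose phosphate pathway, ranked better in cDKO at 2 regions, of which chr4:149166186-149167505 ranked 1369, 1714, 2254 and 1868 in control and 1098, 616, 1060 and 854 in cDKO. Psat1, the enzyme after Phgdh in serine synthesis, ranked worse in cDKO (chr19:15924088-15925472), at 1138 to 2634 in control against 3700 to 6952. Of 20 mTORC1 genes, Rragc had a region higher and Rps6kb1 (the kinase S6K1) 1 lower in cDKO. A Rictor region (chr15:6726242-6726853), in a gene of the sister complex mTORC2, ranked worse with IL-2: without it the ranks were 742 and 664 in control and 187 and 235 in cDKO, and with it 1087 and 1468 and 1519 and 2104. Among 18 HIF and Myc regulators, Irf4, a factor induced by T cell receptor signals, had 1 region called lower in cDKO and another ranked worse.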

How the data were processed

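The data were 8 deposited peak lists, each from a single ATAC-seq library. Per the submitters' processing notes, the build was GRCm38 (mm10), and the tools were MACS2 2.2.7.1, HOMER 4.11.1, ChIPseeker 1.18.0, DiffBind 2.10.0, SAMtools 1.3.1, Picard, Bowtie2 2.4.1 and Trimmomatic 0.39. The notes give no roles, and settings such as read shifting and duplicate removal are unstated in these sources. For each peak the authors give a fold over background (a ratio), a −log10 p-value and a −log10 q-value, used here to order or filter peaks of the same list. Read depth is unknown, so no interval or floor is given.

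Peaks were merged at 1 bp overlap, and each list was cut to its 65811 peaks of highest −log10 p. Gene bodies came from the RefSeq table of GRCm38.p6, where all 35 symbols matched. Starts and sequences came from the RefSeq promoter table, where 32 did. Exons, introns and the genome sequence were not used here. Genotype and IL-2 were compared with 4 libraries against 4, and within arms with 2 against 2. Calls were read against all regions, with no p-value over the members. Named regions are all those called or separated over 8 libraries and part of the start regions, with the strongest region of members without a listed start. Those within arms were taken from the 5 strongest per direction. A region of Slc7a5 and another of Bcat1 were picked after their values were seen. Scripts used Python 3.11.15, NumPy 2.4.6 and pandas 2.3.3 and were tested on simulated lists. The members and gene lists were chosen with earlier results of these data known. Alternatives were the list length, the ranking, a −log10 q of at least 5, 50% cover of a region, the flank, a looser call, members outside chromosome 6, a replicate block and leaving out each library.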

Additional observations from a re-analysis of the deposited data

How the results depend on the processing

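None of the 8 genotype calls held with deposited lists at full length or with the strongest 32905 peaks per list; 5 held when peaks were ordered by fold, 3 with a −log10 q of at least 5 and 4 when peaks had to cover 50% of a region. Of separated ranks, ordering by fold kept 2 of 9 by genotype and 5 of 8 by IL-2. Except for the replicate block, the shares of all regions called under other settings are not given here. The member counts below are therefore not read against a background. Against 4 higher and 4 lower by genotype, deposited lists gave 1 and 2, the shorter lists 1 and 1, and the looser call (3 of 4 against at most 1 of 4) 12 and 15. A 25 kb flank gave 7 higher, members outside chromosome 6 gave 2 higher, and leaving out Rptor (chosen after seeing the data) 2 and 2. Ordering by fold gave 2 lower, and so did the q limit. For IL-2 the looser call gave 6 and 6, the shorter lists 1 higher, the q limit 2 lower and the 25 kb flank 1 lower.

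The genotype difference in listed share was -0.0648 points with shorter lists, 0.0648 with the q limit and -3.02 over gene bodies alone; that for IL-2 turned to -5.96 with deposited lists and -6.02 with the q limit, settings in which list length differs between libraries. Ordering by fold left 1 region worse in cDKO and 1 worse with IL-2. For IL-2, gene bodies alone gave 0 worse, and members outside chromosome 6 gave 3 better and 1 worse. Counts per gene separated 1 member downward by genotype with shorter lists and 1 over gene bodies, where IL-2 gave 1 upward; deposited lists gave 1 downward for IL-2.

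Without IL-2, cDKO against control gave 5 higher with deposited lists, 5 over gene bodies and 5 lower with shorter lists. With IL-2 it gave 19 higher and 4 lower with deposited lists, and 6 lower with shorter ones. IL-2 in control gave 0 higher and 14 lower with deposited lists. In cDKO it gave 3 higher with shorter lists, 8 lower with deposited lists and 2 lower over gene bodies. Deposited lists held 145979 and 92488 peaks in control and 96764 and 108842 in cDKO without IL-2. With IL-2 they held 113317 and 65811 in control and 96752 and 115250 in cDKO. The part of list length in these changes was not tested.

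Leaving out 1 library at a time gave 4 to 6 regions higher and 4 to 7 lower by genotype, a share difference of -2.05 to -0.928, and 5 to 11 ranks better and 6 to 10 worse; gene counts gave 0 to 1 in each direction. For IL-2 it gave 0 to 2 higher, 0 to 1 lower, 0.0216 to 1.3 points, 6 to 11 better, 2 to 8 worse, and gene counts of 0 to 1 upward and 0 to 0 downward. Within arms the ranges were 13 to 15 higher and 15 to 26 lower for genotype without IL-2, 12 to 15 and 11 to 26 with it, 5 to 17 and 8 to 13 for IL-2 in control, and 10 to 16 and 8 to 11 in cDKO. A call on fewer libraries has fewer conditions to meet, in member regions as in all others. Lower calls by genotype reached 7 without replicate 1 of control without IL-2, where 8 ranks were worse with IL-2. Without replicate 2 of control with IL-2, 11 ranks were better in cDKO, and without replicate 1 of that group 11 were better with IL-2. Without either replicate of control without IL-2, 10 ranks were worse in cDKO.

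With a replicate block, in which each library was compared only with that of the same number, 16 regions ranked better in cDKO and 12 worse, and 20 better with IL-2 and 9 worse, beside 15.2%, 12.8%, 11.8% and 12.4% of all 40694 regions. Deviations of same-numbered libraries correlated at 0.375 between control without and control with IL-2. Over the other pairs of groups the values were -0.19 to 0.0375. The numbers were not taken to pair samples, and whether they do so within control was not settled. Crossing the numbers in the IL-2 arm, chosen after seeing the data, gave 18 and 14 for the genotype comparison under the block.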
